A study of Sus scrofa with 2 samples.

Results

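The 8 genes described here run the restriction point of the cell cycle: the D-type cyclins CCND1, CCND2 and CCND3, their kinases CDK4 and CDK6, the kinases' substrate RB1, and the CDK inhibitors CDKN1A (p21) and CDKN1B (p27). They were taken by symbol, and all 8 were found among the 28155 genes of both libraries. The cells were cultured adipose-derived stem cells (ADSCs), the fibroblast-like progenitors that grow out of digested fat, from chest fat of healthy Bama miniature pigs. They had been passaged over 3 generations in at most 14 days and were frozen for later use. The labels give 1 group of 2 single-cell libraries (10x Chromium 3' chemistry, v3.1), with no treated or control arm. Whether the libraries derive from different animals is not given. The p-values here thus rest only on how differences between groups of cells vary between these 2 libraries, pooled over genes. That spread may be technical.

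In G1, mitogens raise the D-type cyclins, which bind and activate CDK4 or CDK6. These kinases phosphorylate the retinoblastoma protein RB1 and so release the E2F transcription factors, which drive genes of DNA replication and cyclin E. CDKN1A, which is induced by DNA damage and other stress, and CDKN1B restrain cyclin E-CDK2, while both proteins also bind cyclin D complexes. Fibroblast-like cells in culture are known for strong CCND1 expression under serum.

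In the pig assembly Sscrofa11.1 (RefSeq), CCND1 lies at chr2:3621242-3633380, CCND2 at chr5:66092483-66114575 and CCND3 at chr7:37087336-37182462. CDK4 lies at chr5:23039206-23041959 and CDK6 at chr9:72510858-72765631, where RefSeq lists CDK6 with the biotype lncRNA. RB1 lies at chr11:19186754-19317642, CDKN1A at chr7:32354776-32363771 and CDKN1B at chr5:59731224-59735831. The spans of CCND2, CCND3 and RB1 overlap LOC106507534, TAF8 and LPAR6 in turn. How counts in the overlaps were assigned is not given in the sources used here, so those 3 levels carry that uncertainty.

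Barcodes with at least 5000 UMIs (unique molecular identifiers, 1 per captured molecule) were used as cells, 9581 of 12251 in library 1 and 11598 of 12956 in library 2. They held a median of 21132 and 20150 UMIs. Of 12 stromal markers 11 reached 10 CPM (counts per 1000000 UMIs) in both libraries, among them COL1A2 and THY1. The summed levels of the endothelial, macrophage, lymphocyte, epithelial, mural, adipocyte, mesothelial and Schwann cell lists ranged from 0.0491 to 23.0 CPM. No doublet caller was run, and 36 and 42 of the barcode sequences used also occurred in the other library's file.

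Cells with 0 UMIs of TOP2A, CDK1, CCNB1, PLK1 and MKI67, genes of late S phase, G2 and mitosis, are called marker-free. There were 4495 in library 1 (46.9%, exact binomial 95% interval 45.9 to 47.9%) and 5619 in library 2 (48.4%, 47.5 to 49.4%). Cells with UMIs of at least 3 of these 5 genes are called marker-rich, and numbered 2402 (25.1%) and 2967 (25.6%). Marker-free cells were shallower, with median UMIs of 18422 and 17606 against 26692.5 and 24381. When every cell was thinned to 5000 UMIs, the marker-free shares became 63.1% and 63.8%, so the absence of a marker UMI depends on depth. The intervals given here cover counting error only.

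CCND1, a cyclin induced by mitogens, and CDKN1B were called lower in marker-free than in marker-rich cells, and no member was called higher. CCND1 stood at 151 CPM in marker-free and 257 CPM in marker-rich cells of library 1, and at 179 and 313 CPM in library 2. The marker-rich sum of either library exceeded the marker-free sums of both. Such an order of 2 library values a side is a description only. The share of all genes that show it was not counted. The log2 difference was -0.77 ± 0.07 (SE), a 1.71-fold lower level (edgeR quasi-likelihood test with the library as block, Benjamini-Hochberg adjusted p = 5.66e-30). CDKN1B stood at 15.1 and 22.6 CPM in library 1 and at 14.3 and 22.7 CPM in library 2, with the library sums in the same order. Its log2 difference was -0.61 ± 0.08, a 1.52-fold lower level (edgeR adjusted p = 7.29e-15).

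A gene was called when its adjusted p was under 0.05, its log2 difference reached 0.5 in size and the libraries did not differ in sign. By that rule 0 of the 8 members were called higher and 2 lower, where 10.7% and 9.17% of the 17332 genes tested were. DESeq2 also called 0 higher and 2 lower, and 4 members were higher at an unadjusted edgeR p under 0.05. Of these CDKN1A, CCND2 and RB1 also had an edgeR adjusted p under 0.05 (3.17e-06, 7.02e-05 and 0.00379) and in that fit missed only the size limit. With DESeq2 the adjusted p was 0.000168 for CDKN1A, 0.00516 for CCND2 and 0.0560 for RB1. For RB1 the edgeR adjusted p became 0.0635 with median-ratio size factors and 0.120 in cells of 10000 to 20000 UMIs. The members' median log2 difference was 0.10, beside 0.02 over all genes tested. Without the library as block the adjusted p from edgeR became 0.126 for CCND1 and 0.116 for CDKN1B, and neither was called. Against all cells with any marker UMI the difference of CDKN1B was -0.38, under the size limit. Marker class moved with depth, as given above. CCND1 and CDKN1B stood at -0.66 and -0.57 in cells of 10000 to 20000 UMIs, at -0.74 and -0.58 with thinned counts and at -0.62 and -0.77 with classes set after thinning, and both were called each time.

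The fitted differences of the other cyclins were positive and under the size limit. CCND2 stood at 56.4 CPM in marker-free and 50.5 CPM in marker-rich cells of library 1, and at 60.7 and 47.4 CPM in library 2 (log2 0.28 ± 0.06). CCND3 stood at 28.1 and 28.0 CPM in library 1 and at 33.0 and 27.7 CPM in library 2 (log2 0.15 ± 0.07). Its difference was -0.02 in library 1 and 0.31 in library 2, and became 0.33 in cells of 10000 to 20000 UMIs and 0.47 with classes set after thinning, still not called. CCND1 made up 64.1% and 65.6% of all D-cyclin UMIs in marker-free cells of the 2 libraries, and 76.6% and 80.6% in marker-rich cells.

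CDK4 stood at 123 CPM in marker-free and 183 CPM in marker-rich cells of library 1, and at 140 and 189 CPM in library 2. Its log2 difference of -0.48 ± 0.07 had an edgeR adjusted p of 2.00e-12 but lay just under the size limit, and with thinned counts it became -0.50 and was called. CDK6, the alternative partner of D cyclins, stood at 177 and 161 CPM in library 1 and at 206 and 213 CPM in library 2, a log2 difference of 0.06 ± 0.07. RB1 stood at 85.9 and 67.6 CPM in library 1 but at 31.4 and 30.8 CPM in library 2 (log2 0.21 ± 0.06). CDKN1A stood at 84.1 and 71.4 CPM in library 1 and at 74.3 and 57.6 CPM in library 2. Its log2 difference of 0.32 ± 0.06 was under the size limit. CDKN1A and CDKN1B thus had differences of opposite sign in both libraries.

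**Figure D1:**
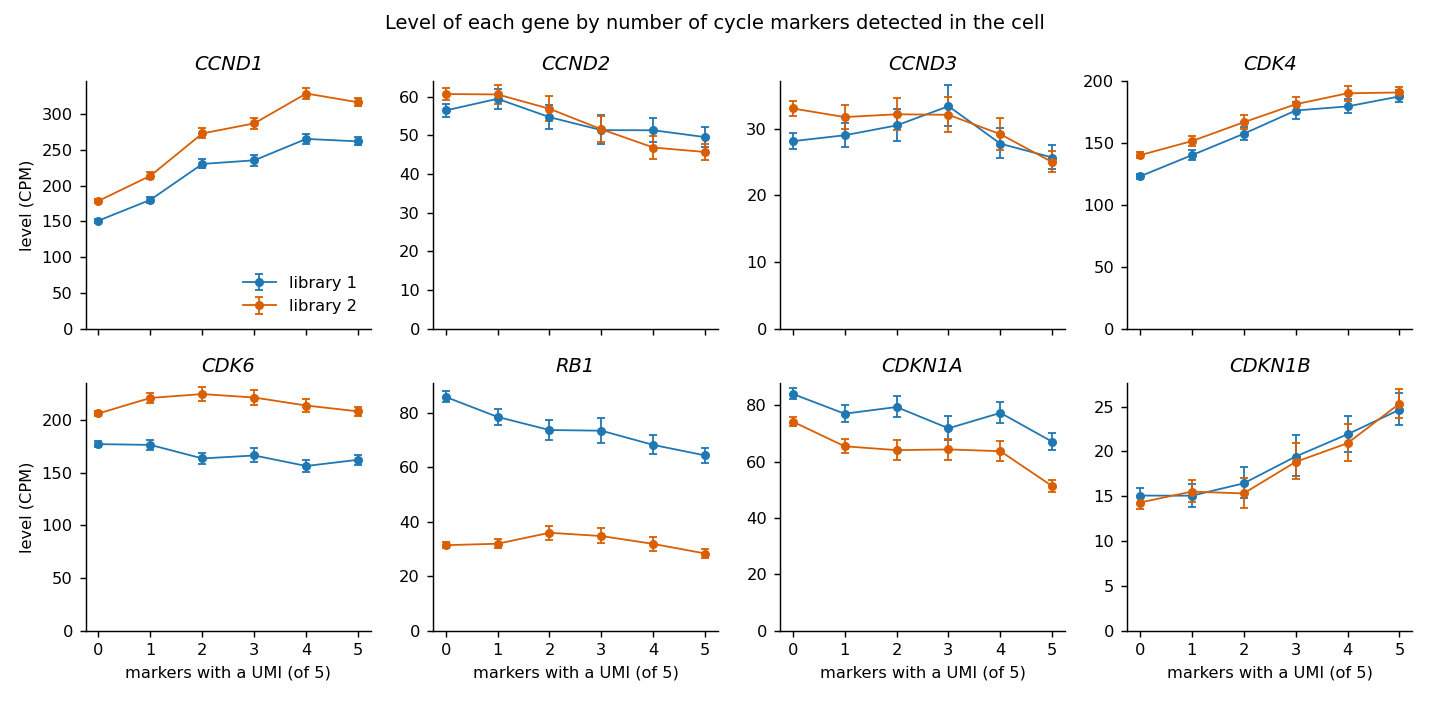
Level of each gene in CPM (y axis, from 0) against the number of the 5 cycle markers with a UMI in the cell (x axis, 0 to 5), with 1 line per library and exact Poisson 95% intervals. CCND1 goes from 151 to 262 CPM in library 1 and from 179 to 316 CPM in library 2, while RB1 is higher in library 1 at every number of markers.

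The levels were also read by the number of markers detected in a cell, which itself went with depth. Median UMIs were 18422 at 0 and 32936 at 5 markers in library 1, and 17606 and 33024 in library 2. The part of depth in the values by marker number was not tested. CCND1 went from 151 CPM in cells with none of the 5 markers through 180, 230, 235 and 265 to 262 CPM in cells with all 5 in library 1. In library 2 it went from 179 through 214, 273, 287 and 329 to 316 CPM. In both libraries the level was thus higher at each step up to 4 markers and did not go on from there to 5. CDK4 went from 123 to 188 CPM and from 140 to 191 CPM between 0 and 5 markers. CDKN1B went from 15.1 to 24.7 CPM and from 14.3 to 25.3 CPM, and still stood at 16.4 and 15.3 CPM at 2 markers. CDKN1A was lower at 5 markers than at 0, at 67.1 against 84.1 CPM in library 1 and at 51.3 against 74.3 CPM in library 2. CCND2 went from 56.4 to 49.5 CPM and from 60.7 to 45.7 CPM.

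Among 19 tested partners and regulators of the G1 kinases 1 was higher and 6 were lower in marker-free cells (median log2 -0.15). CCNA2, the S-phase and G2 cyclin, was lowest at log2 -5.86, followed by the CDK4 and CDK6 inhibitor CDKN2D at -2.36, the CDK subunit CKS1B at -2.22 and CDK2 at -1.52. CDKN1C, the third inhibitor of the CDKN1 family, was higher at 0.76. Of 19 E2F, pocket protein and DREAM complex genes 12 were lower and 0 higher (median -0.84), with E2F8 at -5.13, FOXM1 at -4.24, E2F7 at -3.79 and E2F2 at -2.99. DESeq2 also called 0 of them higher, and 1 was higher at an unadjusted edgeR p under 0.05. Marker-free cells were chosen for lacking UMIs of 5 genes of late S phase, G2 and mitosis. Lower levels of cycle genes expressed with those 5 thus in part describe that choice and are no separate support. Of 23 damage and stress response genes 5 were higher and 3 lower (median 0.16). FDXR at -1.15 and DDB2 at -0.89 were lower, and the antiproliferative BTG2 at 0.73 and the stress gene GADD45A at 0.72 were higher. Of 26 genes of mitogen and growth factor input 2 were higher and 1 lower (median 0.28): CEBPA at 0.84 and EGR1 at 0.64 were higher and FOSL1, a partner of JUN in AP-1, lower at -0.73. Of the 12 stromal markers 3 were higher in marker-free cells (DCN, COL3A1 and COL1A1). Of 4 mural markers tested NOTCH3 and KCNJ8 were higher and CSPG4 lower (median 0.88), of 3 adipocyte markers FABP4 and CIDEC were higher (median 1.27), the one mesothelial marker tested, WT1, was higher and the one lymphocyte marker tested, CD79A, lower. Outside the stromal list these called markers had levels of 0.0128 to 20.6 CPM. The part of these markers in the result was not tested.

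Marker-free cells were then split by 17 replication genes (the MCM helicase genes, PCNA, CDC6, RRM2 and others, with MCM5 not analysed here). Cells with UMIs of at least 4 of them after thinning are called replication-high, and cells with at most 1 replication-low. There were 322 and 372 replication-high and 2824 and 3788 replication-low marker-free cells in libraries 1 and 2. Their median UMIs were close, at 18259.5 and 16186 against 18202 and 17858.5.

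Within marker-free cells, replication-high cells had a higher CCND1 level and a lower CDKN1A level. CCND1 stood at 269 CPM in replication-high and 129 CPM in replication-low cells of library 1, and at 333 and 155 CPM in library 2. Every replication-high value was above every replication-low value. The log2 difference was 1.02 ± 0.05, or 2.02-fold (edgeR quasi-likelihood test with the library as block, adjusted p = 2.04e-98). CDKN1A stood at 56.5 and 86.2 CPM in library 1 and at 42.9 and 78.9 CPM in library 2. Here every replication-high value was the lower. The log2 difference was -0.81 ± 0.07, 1.75-fold lower (edgeR adjusted p = 1.75e-29). Both orders of library values given here are descriptions only, and the share of all genes that show such an order was not counted.

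Of the 8 members 1 was called higher and 1 lower, where 5.79% and 3.81% of 15123 genes were. The median log2 difference was 0.08 over the members and -0.03 over all genes. Without the library as block edgeR called 0 of the 15123 genes, with adjusted p of 0.176 for CCND1 and 0.306 for CDKN1A. At an unadjusted p under 0.05 that fit held 1487 genes, 3 of them members.

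The kinases, RB1, CDKN1B and the other cyclins were not called in this split. CDK4 stood at 166 and 115 CPM in library 1 and at 182 and 133 CPM in library 2 (log2 0.42 ± 0.05, edgeR adjusted p = 2.39e-14, under the size limit). CDK6 had a log2 difference of 0.21 ± 0.05. CCND3 had one of 0.18 ± 0.09, which came from library 1 (0.39 against -0.01 in library 2). CCND2 had one of -0.03 ± 0.07. RB1 had one of -0.02 ± 0.07, with -0.10 in library 1 and 0.09 in library 2. CDKN1B stood at 13.5 and 15.3 CPM in library 1 and at 13.2 and 14.5 CPM in library 2, a log2 difference of -0.23 ± 0.13. Its level in replication-high marker-free cells thus lay below that in marker-rich cells, which was 22.6 and 22.7 CPM.

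In the same split 8 of 19 partners were higher and 1 lower. CDK2 was higher by 1.92, CCNA2 by 1.82 and the cyclin E genes CCNE1 and CCNE2 by 1.28 and 1.00 on the log2 scale, and CDKN1C was lower at -0.82. Of 19 E2F and pocket protein genes 11 were higher, led by E2F1 at 3.33, E2F8 at 3.11, E2F7 at 3.00 and LIN9 at 2.46, and 0 were lower. DESeq2 likewise called 0 of these lower, and 0 were lower at an unadjusted edgeR p under 0.05. Replication genes chose these classes, so higher levels of genes expressed with them in part describe that choice. Of 23 damage and stress response genes 1 was higher (DDB2, 0.87) and 6 were lower, among them PHLDA3 at -0.70 and GDF15 at -0.62. Of 25 mitogen input genes 5 were lower, among them FOXO3 at -0.63 and SMAD7 at -0.62, and 0 higher, as with DESeq2 and at an unadjusted edgeR p under 0.05. Of the 12 stromal markers 3 were lower (DCN, COL3A1 and COL1A1), and of 4 mural markers CSPG4 was higher and KCNJ8 lower. Their part in the result was not tested.

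**Figure D2:**
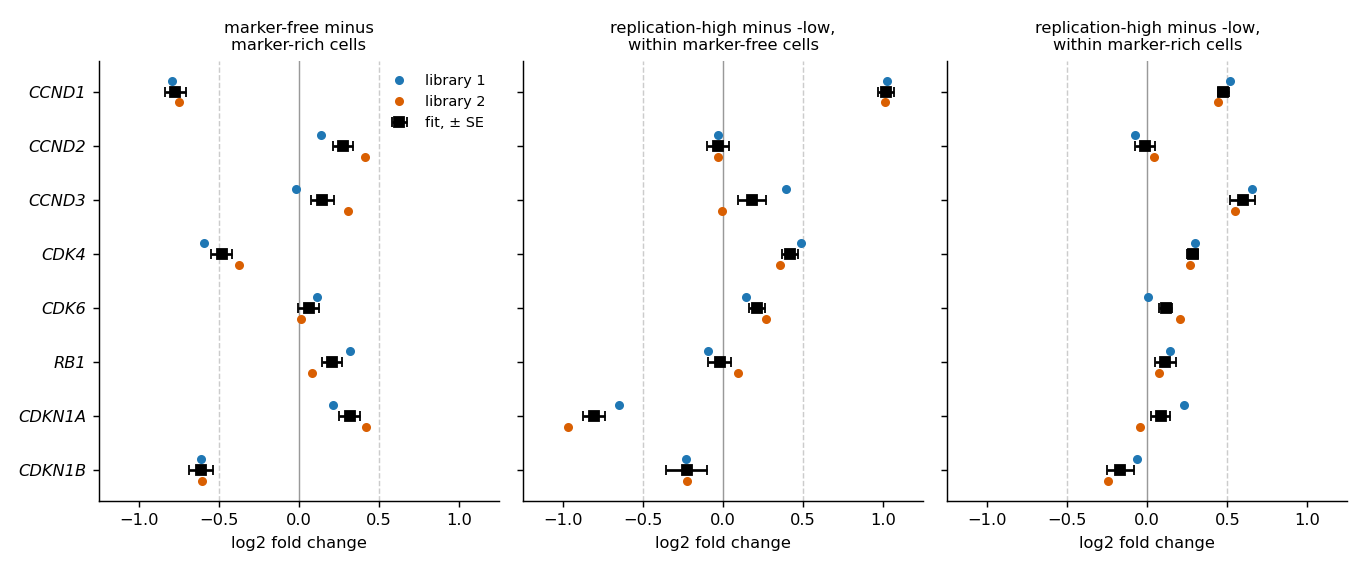
Log2 differences (x axis) of the 8 genes (y axis) in 3 comparisons, with the fitted value and its SE in black and the value in each library as a coloured point. Dashed lines mark the size limit of 0.5. CCND1 is at -0.77, 1.02 and 0.47 from left to right, and CDKN1A at 0.32, -0.81 and 0.08.

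The same split was made in marker-rich cells, which gave 1107 and 1298 replication-high and 331 and 527 replication-low cells. Replication-high cells were deeper here, with median UMIs of 28706 and 28961 against 23889 and 22369. CCND3, the most widely expressed D cyclin in many tissues, was the one member called. It stood at 33.7 CPM in replication-high and 21.0 CPM in replication-low cells of library 1, and at 34.3 and 23.2 CPM in library 2. Both replication-high library sums lay above both replication-low ones. That order is a description only, and the share of all genes that show it was not counted. The log2 difference was 0.60 ± 0.08, 1.51-fold (edgeR quasi-likelihood test with the library as block, adjusted p = 5.91e-08). Of the 8 members 1 was higher and 0 lower, where 3.26% and 1.38% of 14521 genes were. DESeq2 also called 0 members lower, and 0 were lower at an unadjusted edgeR p under 0.05. The members' median was 0.11 and that of all genes -0.00.

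CCND3 was not called in cells of 10000 to 20000 UMIs, at 0.43 with an edgeR adjusted p of 0.108, nor without the library as block, at 0.60 with an adjusted p of 0.661. It was called in cells of at least 10000 UMIs, at 0.59, and without the 8% of cells with the most UMIs, at 0.64. CCND1 stood at 293 and 201 CPM in library 1 and at 349 and 255 CPM in library 2, a log2 difference of 0.47 ± 0.03 (edgeR adjusted p = 8.60e-17) under the size limit. It passed the limit in cells of 10000 to 20000 UMIs, at 0.60, and without that 8%, at 0.52. CDK4 had a log2 difference of 0.28 ± 0.04. CDK6 had one of 0.11 ± 0.04, which came from library 2 (0.20 against 0.0035 in library 1), and RB1 one of 0.11 ± 0.06 (0.14 and 0.07). CDKN1A stood at 74.2 and 62.1 CPM in library 1 and at 56.3 and 57.6 CPM in library 2 (log2 0.08 ± 0.06), so its sign differed between the libraries. CDKN1B had a log2 difference of -0.17 ± 0.08 and CCND2 of -0.01 ± 0.06.

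By a test of the difference itself, the replication split of CCND1 was larger in marker-free than in marker-rich cells, and that of CDKN1A was lower. The replication genes that set the split also differed more in marker-free cells. Their median log2 difference was 3.103 there, beside 1.670 in marker-rich cells. The contrasts were thus unequal, and the part of this in the differences of CCND1 and CDKN1A was not tested. The CCND1 split was larger by 0.56 ± 0.05 on the log2 scale (edgeR interaction contrast, adjusted p = 3.19e-05), at 0.48 in library 1 and 0.62 in library 2. For CDKN1A the difference was -0.88 ± 0.11 (edgeR adjusted p = 0.000393), at -0.90 and -0.87. For CCND3 it was -0.40 ± 0.13 and not called (edgeR adjusted p = 0.112). By the same call rule 2.31% of 15218 genes differed in either direction. Of the partners 4 of 19 were higher in replication-high marker-rich cells, namely CCNE2 at 1.44, CCNE1 at 1.11, CDK2 at 1.05 and FBXO4, a cyclin D1 ubiquitin ligase subunit, at 0.83. Of the E2F and pocket protein genes 9 of 19 were higher, among them E2F1 at 1.92 and RBL1 at 1.20. Here too, higher levels of genes expressed with the replication genes in part describe how the classes were chosen. The mural marker MYH11 was lower, at 1.34 against 4.80 CPM and 0.702 against 0.759 CPM, and its part in the result was not tested.

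**Figure D3:**
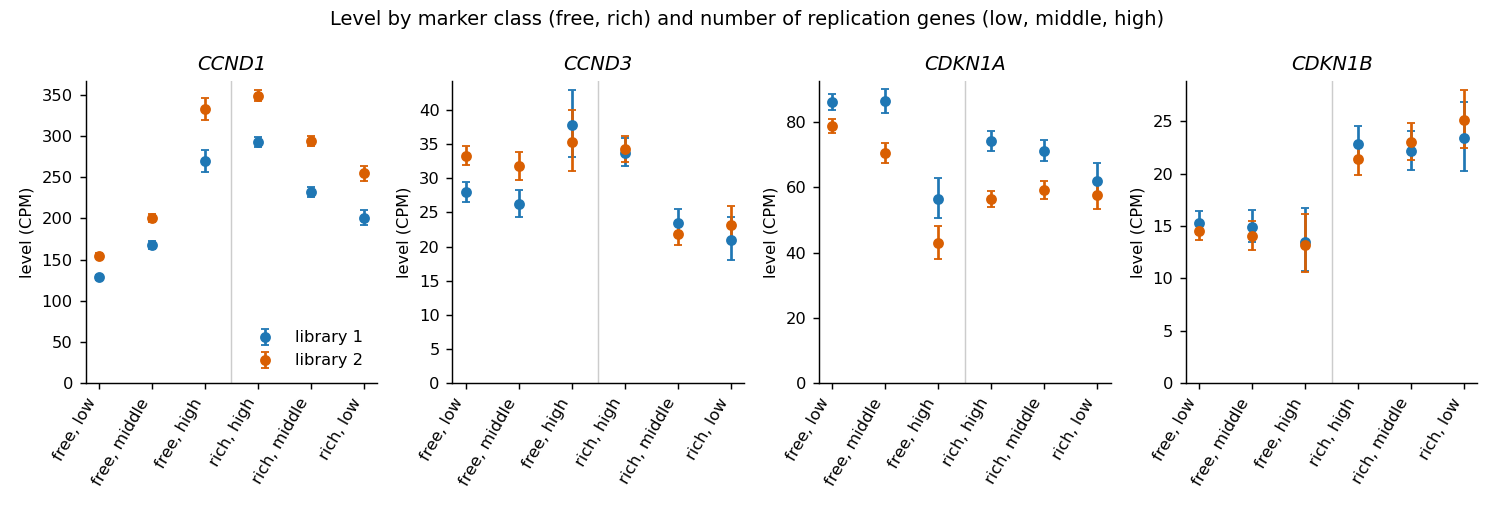
Level in CPM (y axis, from 0) of CCND1, CCND3, CDKN1A and CDKN1B in 6 classes of cells, marker-free and then marker-rich, by number of replication genes (low at most 1, high at least 4), with exact Poisson 95% intervals and 1 colour per library. CDKN1A is lowest in replication-high marker-free cells (56.5 and 42.9 CPM), and CDKN1B lies between 13.2 and 15.3 CPM in all marker-free classes.

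Across the 6 classes CCND1 and CDKN1B followed different orders. CCND1 was lowest in replication-low marker-free cells (129 and 155 CPM) and highest in replication-high marker-rich cells (293 and 349 CPM), with replication-high marker-free cells close to the latter (269 and 333 CPM). Replication-low marker-rich cells had 201 and 255 CPM. CDKN1B lay between 13.2 and 15.3 CPM in the marker-free classes and between 21.4 and 25.1 CPM in the marker-rich classes of both libraries. The CCND1 share of D-cyclin UMIs was 60.7% and 62.3% in replication-low and 74.2% and 77.2% in replication-high marker-free cells.

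To see what accompanied CDKN1A, marker-free cells with at least 1 CDKN1A UMI after thinning (1345 and 1492) were set against those with none (3150 and 4127). CDKN1A itself chose these classes, and its levels of 169 and 47.6 CPM in library 1 and 173 and 38.6 CPM in library 2 only describe them. In full counts 45.7% and 37.7% of the cells without a thinned CDKN1A UMI did have one. Of the other 7 members 0 were called in either direction, where 0.735% of 16058 genes were called higher and 0.38% lower. DESeq2 also called 0 of the 7, and at an unadjusted edgeR p under 0.05 there were 2, RB1 and CDK4. RB1 stood at 93.3 CPM with and 82.7 CPM without a CDKN1A UMI in library 1, and at 35.4 and 30.0 CPM in library 2 (log2 0.22 ± 0.04). CDK4 had a log2 difference of -0.09 ± 0.03, and CCND1 of 0.00 ± 0.03. The members' median was 0.00, as was that of all genes.

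Other damage and stress response genes were higher in the cells with a CDKN1A UMI. Of 23 damage and stress response genes 7 were higher and 0 lower (median log2 0.31), and DESeq2 and an unadjusted edgeR p under 0.05 also gave 0 lower. The stress cytokine GDF15 was higher by 1.44 ± 0.12, at 8.43 against 3.26 CPM in library 1 and 7.10 against 2.56 CPM in library 2. MDM2, a ubiquitin ligase, was higher by 1.19 ± 0.05, at 37.7 against 19.5 CPM and 64.4 against 26.0 CPM. The death receptor FAS was higher by 1.14 ± 0.14 and ZMAT3 by 0.70 ± 0.05. Of 17 replication genes 5 were lower (UHRF1, DTL, CLSPN, CDT1 and MCM4, median of the list -0.43). These are the genes and marker-free cells of the replication split above, where CDKN1A was lower, so this is no separate support. E2F1 was lower at -0.53 ± 0.13, the one of 18 E2F and pocket protein genes called. The adipocyte marker FABP4 was higher as well, at 0.392 against 0.187 CPM and 1.61 against 0.427 CPM, and its part in the result was not tested. Of the partners 0 of 19 and of the mitogen input genes 0 of 26 were called by edgeR or DESeq2, with 6 and 10 at an unadjusted edgeR p under 0.05. Without the library as block edgeR called 0 of all 16058 genes, with 166 at an unadjusted p under 0.05.

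**Figure D4:**
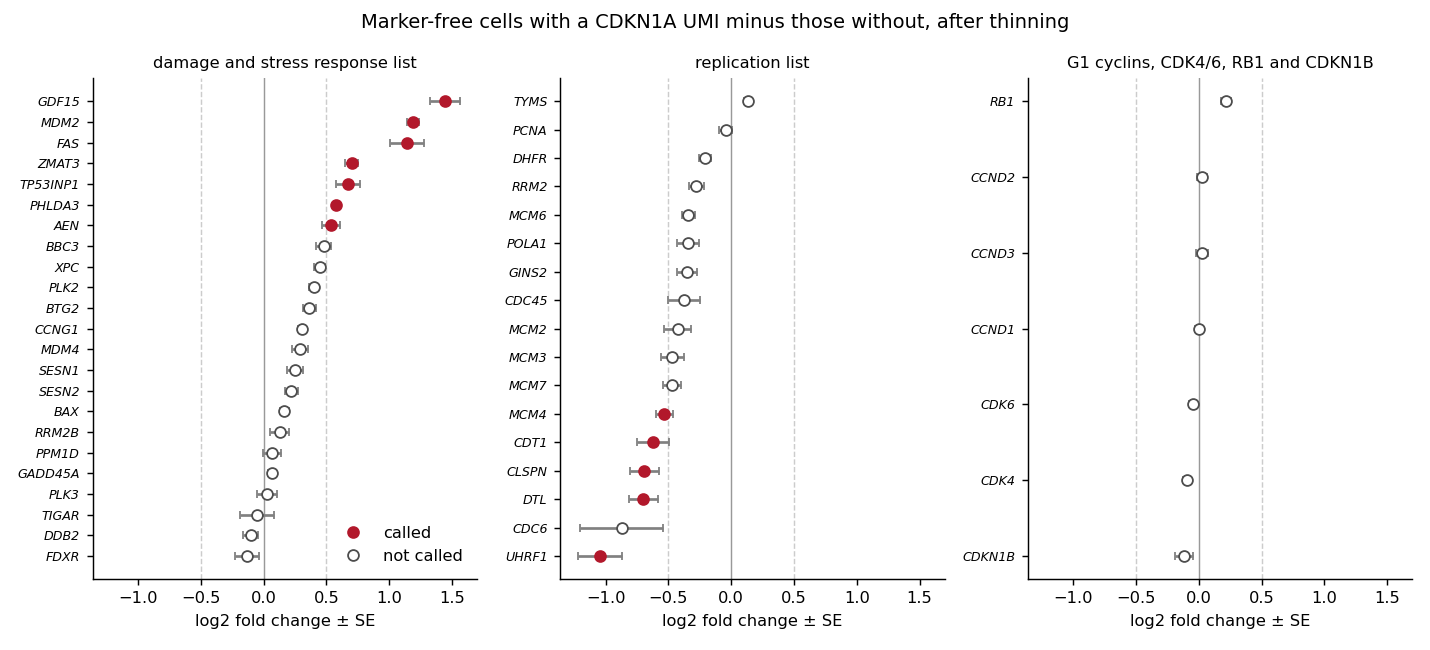
Log2 differences ± SE (x axis) between marker-free cells with and without a CDKN1A UMI after thinning, for 23 damage and stress response genes, 17 replication genes and the other 7 members, with called genes filled. GDF15 at 1.44 and MDM2 at 1.19 lead the first panel, and the members of the third lie between -0.12 and 0.22.

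RB1 differed between the libraries by more than 2-fold, the one member to do so. It stood at 77.6 CPM in library 1 (95% Poisson interval 76.4 to 78.8) and at 31.7 CPM in library 2 (31.0 to 32.4), a ratio of 2.44. Each library is a single sample, so no test is possible. The ratio was 2.73 in marker-free and 2.19 in marker-rich cells, and 31.0% against 14.9% of cells had an RB1 UMI after thinning. Among the 8032 genes whose mean level reached 10 CPM, library 1 exceeded library 2 by 2-fold or more for 2.76%, and the reverse held for 0.411%. LPAR6, whose span overlaps RB1, stood at 10.9 and 5.63 CPM, and its part in the result was not tested. The pocket protein genes related to RB1 did not share its direction: RBL1 stood at 8.86 and 16.1 CPM, and RBL2 at 11.02 and 12.3 CPM. The other 7 members had ratios of library 1 to library 2 between 0.80 (CDK6, 170 and 212 CPM) and 1.18 (CDKN1A, 78.4 and 66.6 CPM). CCND1 stood at 198 and 235 CPM, CDK4 at 149 and 160 CPM, CCND2 at 54.9 and 56.1 CPM, CCND3 at 28.5 and 31.1 CPM and CDKN1B at 17.6 and 17.3 CPM. CCNE2 also differed between the libraries, at 13.1 and 3.84 CPM, while CCNE1 stood at 8.36 and 7.99 CPM.

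Depth went with the level of some members among marker-free cells, with no other trait of the cells held equal. CDK6 stood at 280 CPM in cells of 5000 to 10000 UMIs and at 163 CPM in cells of 20000 to 40000 UMIs of library 1, and at 239 and 194 CPM in library 2. CCND2 ran the other way, from 35.7 to 63.1 CPM and from 44.7 to 65.3 CPM between the same bins. RB1 in library 1 went from 112 to 80.7 CPM. CCND1 was close between these bins, with 149 CPM in each for library 1 and 163 and 166 CPM for library 2. It was not level over all depths. Marker-free cells of 10000 to 20000 UMIs had 153 and 193 CPM, and those from 40000 UMIs up (73 and 115 cells) had 173 and 253 CPM. CDKN1A was also higher in these deepest cells (103 and 118 CPM) than in cells of 5000 to 10000 UMIs (83.0 and 72.9 CPM).

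From cell to cell the counts of CCND1 and CDK6 spread furthest beyond counting noise among the members. A CCND1 UMI was present in 50.2% and 54.5% of cells thinned to 5000 UMIs, and the variance of thinned UMIs was 1.97 and 2.14 times the mean, where 1 would be counting noise. The highest full count in a cell was 115 and 97 UMIs. For CDK6 the variance was 1.72 and 1.51 times the mean, for CDKN1A 1.32 and 1.43, and for RB1 1.29 and 1.09. For CDK4 it was 1.10 and 1.07 times the mean, and CCND2, CCND3 and CDKN1B lay between 1.02 and 1.10. Within marker-free cells CCND1 lay at 1.80 and 1.90 and CDK6 at 1.88 and 1.64, so their order differed between the libraries. CDKN1B was seen in 8.19% and 8.15% of thinned cells. A cell type that lacks these genes was not at hand, so the share that free RNA alone would give was not measured. Of the cells with 0 thinned CCND1 UMIs 52.3% and 55.8% were marker-free, and of those with at least 4 such UMIs 28.1% and 30.8%.

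Correlations between pairs of members from cell to cell were weak. Counting noise in thinned counts pulls them toward 0, so they do not show that the members vary independently. Within marker-free and marker-rich cells the highest Pearson correlation of log2(thinned UMIs + 1) was 0.122, for CCND1 and CDK6 in marker-rich cells of library 2. The lowest was -0.079, for CCND1 and CDKN1A in marker-rich cells of library 1. Over 4495 and 5619 marker-free cells and 5660 genes, the genes most like CCND1 were PPP1R14B (r of 0.158 and 0.187), ACTG1 and CCL2. Those most like CDKN1A were PHLDA3 (0.161 and 0.206), MDM2 (0.146 and 0.198) and MGMT (0.146 and 0.190). The cells of a library share its depth and preparation, and correlations this weak in sparse counts are descriptions only.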

How the data were processed

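The deposited matrices hold UMI counts, whole and not normalized, which the authors made with Cell Ranger, version 7.0.0 per the file headers. The submitters' processing notes name Cell Ranger 7.00 and Sscrofa11.1. The annotation and the settings for calling cells were not given in the sources used here. Genes were taken by symbol. Classes used full counts of the 5 markers, or counts after thinning each cell to 5000 UMIs for replication genes and CDKN1A. The CDKN1A classes had been set at the 80th and 20th percentiles, which fell at 1 and 0 UMIs. Counts were summed per library and class and tested with edgeR 4.0.16 (quasi-likelihood, TMM, filterByExpr, R 4.3.3) with the library as block, because both classes come from the same libraries; p-values were adjusted over all genes tested. With 1 residual degree of freedom the spread was pooled over genes, on which the very small p-values rest. Their size depended on the setting. For CCND1 in the replication split of marker-free cells the edgeR adjusted p was 2.04e-98 as reported. It became 5.60e-17 without barcodes found in both libraries and 1.14e-08 with median-ratio size factors. On simulated counts for the marker-free against marker-rich comparison (17332 genes) 84.8% of genes changed by 1 on the log2 scale were recovered and 65.3% of those changed by 0.7. These counts were drawn with the pooled spread of the same fit, so they cannot show whether that spread is right. CPM used summed counts, with exact Poisson intervals. Alternatives included DESeq2 1.42.0. The named genes were all members and, per list, up to 4 of the called genes with the largest differences. For CCND1 and CDKN1A the 3 genes most like each were also named, and those of the other members are not given. Members and lists were chosen with earlier results of these data known. A gene of the damage and stress response list is not reported here.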

Additional observations from a re-analysis of the deposited data

Results flagged for a closer look

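The replication split differed between marker-free and marker-rich cells for 2 members, by a test of the difference itself. The replication genes that set the split also differed more in marker-free cells, and the part of this was not tested. For CCND1 the difference was 0.56 on the log2 scale (edgeR adjusted p = 3.19e-05), with the same sign in 2 of 2 libraries. For CDKN1A it was -0.88 (edgeR adjusted p = 0.000393), also with 1 sign in both libraries.

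The barcodes under 5000 UMIs, which no comparison used, also held UMIs of all 8 members. There were 2670 in library 1 and 1358 in library 2, with medians of 1399.5 and 1064.5 UMIs. CCND1 stood there at 232 and 266 CPM, CCND2 at 53.4 and 56.1 CPM and CCND3 at 30.5 CPM in each library. CDK4 stood at 127 and 122 CPM and CDK6 at 295 and 340 CPM, above the levels of 170 and 212 CPM in the cells used. RB1 stood at 132 and 65.3 CPM, CDKN1A at 73.7 and 74.5 CPM and CDKN1B at 21.9 and 17.4 CPM. The library difference of RB1 was thus present in these barcodes too.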

How the results depend on the processing

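The 5 calls of members were recomputed 49 times under alternatives that changed the cells or the fit: 42 kept the call, 7 lost it and 0 changed sign. Of 246 such values of members not called, 4 were called. The limit on genes and mitochondrial UMIs removed no cell. Without the replicate block 56 genes were higher and 401 lower in marker-free cells, with 0 members lower, and in the other comparisons 0 genes were higher and 0 lower, with 0 members in either direction (edgeR). Both classes come from the same libraries, so the block pairs them by design. DESeq2 called 1073 higher in marker-free cells (1856 with edgeR), 506 higher and 232 lower in the split of marker-free cells (876 and 576), 182 and 62 in that of marker-rich cells (473 and 200) and 31 and 6 with a CDKN1A UMI (118 and 61). Against all cells with a marker UMI 1131 genes were higher and 1 member lower. In marker-rich cells 2 members were higher without the 8% of cells with the most UMIs, and 300 genes at 10000 to 20000 UMIs. The CDKN1A comparison gave 63 and 37 genes without the 8% and 70 higher at 10000 to 20000 UMIs. In alternatives chosen after seeing the data, at least 2 CDKN1A UMIs gave 233 and 125 genes, and at least 5 replication genes against 0 gave 2 members higher in marker-rich cells. With 1 library left out no residual degrees of freedom remain, so counts were not possible. In single libraries CCND1 lay between -0.79 and -0.75 against marker-rich cells and CDKN1A between -0.97 and -0.65 in the replication split of marker-free cells. CCND3 ranged from 0.10 to 0.47 against marker-rich cells over the alternatives with both libraries.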
